A study of Mus musculus with 2 samples.

Results

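The S100 proteins and annexins described here are 10 genes, S100a4, S100a6, S100a8, S100a9, S100a10, S100a11, Anxa1, Anxa2, Anxa3 and Anxa5, taken by name with every probe set that the array's annotation pairs with that symbol alone. Of the 10 genes, 9 had such a probe set (12 probe sets in all), out of 12393 genes on the array. S100a11 had none, because its probe set is shared with other genes in the annotation, and no value is given for it.

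Splenocyte RNA was hybridized at day 10 to 1 Affymetrix mouse GeneChip per group, the GPI array and the control array. The GPI-immunized group consisted of male DBA/1 mice given 300 μg of recombinant human GPI-GST, glucose-6-phosphate isomerase (GPI) fused to the carrier glutathione S-transferase (GST), an immunization that brings on acute arthritis. The control-immunized group consisted of male DBA/1 mice given 100 μg of GST without GPI. The mice were 6 to 8 weeks old, and both antigens were given in complete Freund's adjuvant, so both groups carried the adjuvant and the carrier. The intradermal route is stated for GPI-GST. The methods name 3 spleens per group, and the sources used here do not give whether their RNA was pooled for the array. With 1 array per group there was no test, no p-value is given, and every ratio describes this pair of arrays. The cells were whole splenocytes, so more cells of a type and more RNA per cell cannot be told apart.

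S100 proteins are small calcium-binding proteins built around a pair of EF-hand loops. Most change shape when calcium binds and then dock onto target proteins, several annexins among them. Annexins bind phospholipid membranes in the presence of calcium and take part in membrane fusion, repair and signalling. In the blood and spleen, S100A8 and S100A9 form calprotectin, an abundant cytosolic protein complex of neutrophils, and annexin A1 is a glucocorticoid-induced mediator that limits neutrophil recruitment.

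The signal is the deposited intensity of a probe set, a group of short oligonucleotides that reads 1 transcript, on a linear scale. The median signal over 22626 probe sets other than control probe sets was 51.8 on the GPI array and 48.65 on the control array. Probe sets for bacterial transcripts, which have no target in mouse RNA, reached at most 7.2 on the GPI array and 14.1 on the control array. A gene was represented by its brightest probe set. It was called higher at a ratio (GPI-immunized over control) of at least 2, or lower at a ratio of at most 0.5, if either signal reached 50.2, the 50th percentile of all signals. As the only spread that these arrays hold, the log2 ratios of different probe sets of the same gene varied, and the SD of 1 probe set was 0.26 (2538 pairs). It contains no variation between mice or hybridizations.

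S100a6, Anxa2, Anxa3 and Anxa1 were higher in GPI-immunized splenocytes, while S100a4, S100a8, S100a9, S100a10 and Anxa5 stayed between the 2-fold limits. All 9 measured genes passed the signal limit on both arrays. Of these, 4 were called higher and 0 were called lower, whereas 2.23% of the 6961 genes that passed the same limit were higher and 0.445% were lower. The median log2 ratio of the 9 genes was 0.27, against 0.06 for all 6961 genes. The higher genes lay close together, between 1.17 and 1.44 on the log2 scale, and a gap of 0.90 separated them from the 5 others, which ranged from -0.29 to 0.27. The width of 0.27 among the 4 higher genes was smaller than 0.37, the SD of a difference between the log2 ratios of a pair of probe sets, so their order was not resolved.

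**Figure D1:**
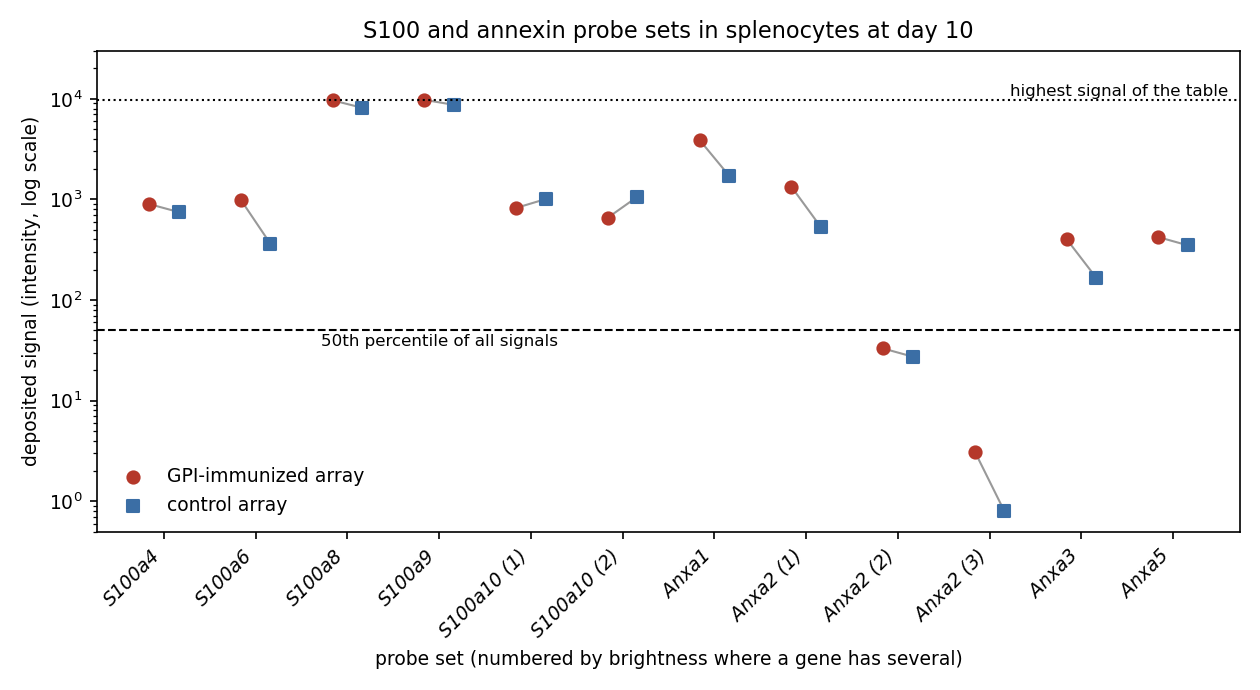
Deposited signal (vertical axis, log scale) of the 12 probe sets of the 9 measured genes on the GPI array (circles) and the control array (squares), 1 array per group. The GPI signal of S100a9 is the highest of the table (9762.3, dotted line), the lines of S100a6, Anxa1, Anxa3 and the brightest Anxa2 probe set slope down from the GPI to the control signal, and both S100a10 probe sets slope up.

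S100a6 encodes calcyclin, an S100 protein of proliferating and activated cells. It gave a signal of 987.6 on the GPI array and 364.4 on the control array, with a ratio of 2.71, which placed it at rank 54 of the 6961 genes. It was the only S100 gene of the 5 measured here that was called, and the call rested on a single probe set.

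Anxa2 encodes annexin A2, which gathers plasminogen and its activator at the cell surface together with S100A10. Its brightest probe set had a signal of 1335.6 on the GPI array and 532.0 on the control array, with a ratio of 2.51 (rank 70). A dimmer probe set of Anxa2 had 33.0 on the GPI array and 27.4 on the control array, both under the signal limit, with a ratio of 1.20. The remaining one had 3.1 and 0.8 on the GPI-immunized and control arrays, within the range of the bacterial probe sets, which leaves no usable ratio. The call for Anxa2 therefore rested on 1 of 3 probe sets, the only one with sufficient signal.

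Anxa3 encodes annexin A3, which associates with granule and phagosome membranes of neutrophils. It had a signal of 401.5 on the GPI array and 167.4 on the control array, with a ratio of 2.40 (rank 83). Anxa1 had 3879.6 on the GPI array and 1722.2 on the control array, with a ratio of 2.25 (rank 100). Both genes had a single probe set. Anxa1 reached 39.7% of the highest signal of the table on the GPI array and 17.6% of it on the control array, and was thus well below the top of the scale.

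Promoter sequences are shown for the higher genes that have an entry in RefSeq's table of assembly GRCm38.p6 (Anxa3 has none), so that their sequence features can be read beside the ratios. Each is the 250 bases before the annotated start, for S100a6 at chr3:90612644-90612893, plus strand, for Anxa1 at chr19:20390672-20390921, minus strand, and for Anxa2 at chr9:69453433-69453682, plus strand. Capitals mark matches, on either strand, to the TATA box (TATAAA), the GC box (GGGCGG), the AP-1 site (TGANTCA) and the C/EBP consensus (TTNNGNAA). None of the matches in these genes overlapped another.
S100a6: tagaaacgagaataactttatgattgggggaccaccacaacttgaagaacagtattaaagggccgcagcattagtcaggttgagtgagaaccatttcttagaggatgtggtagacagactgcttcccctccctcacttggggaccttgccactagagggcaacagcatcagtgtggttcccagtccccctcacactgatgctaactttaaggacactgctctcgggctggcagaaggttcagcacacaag
Anxa1: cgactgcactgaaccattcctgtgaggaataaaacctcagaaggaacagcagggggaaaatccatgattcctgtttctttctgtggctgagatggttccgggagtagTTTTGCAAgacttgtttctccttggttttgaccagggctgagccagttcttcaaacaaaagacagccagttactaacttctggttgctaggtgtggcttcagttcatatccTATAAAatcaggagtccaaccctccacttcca
Anxa2: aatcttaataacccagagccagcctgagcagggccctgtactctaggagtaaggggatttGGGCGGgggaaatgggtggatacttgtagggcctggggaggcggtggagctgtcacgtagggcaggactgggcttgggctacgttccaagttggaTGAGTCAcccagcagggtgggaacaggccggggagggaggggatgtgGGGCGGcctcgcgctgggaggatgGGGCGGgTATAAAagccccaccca
The window of Anxa1 held a TATA box that began 32 bases before the start and a C/EBP match. The window of Anxa2 held a TATA box, 3 GC boxes and an AP-1 site. Its TATA box began 17 bases before the start, nearer than in Anxa1, and its AP-1 site 95 bases before it. The window of S100a6 matched none of the 4 motifs. Among 32851 windows of the same length in the table, 12.4% held the TATA box, 32.7% the GC box, 6.75% the AP-1 site and 36.8% the C/EBP consensus. The higher genes thus shared no motif of these across all 3 windows, and a match is a description of the letters only.

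S100a8 and S100a9, the subunits of calprotectin, were among the brightest genes on both arrays. S100a9 had a signal of 9762.3 on the GPI array, the highest value of the whole table, and 8697.7 on the control array (rank 6 there), with a ratio of 1.12. S100a8 had 9644.9 on the GPI array (rank 3) and 8141.5 on the control array (rank 15), with a ratio of 1.18, from a probe set of a type that can read several transcripts. Their control signals were already 89.1% (S100a9) and 83.4% (S100a8) of the highest signal of the table.

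A 2-fold higher signal would have been 17395 for S100a9 and 16283 for S100a8, above every signal of the table. Among the 100 probe sets of highest mean signal the log2 ratios had an SD of 0.09, compared with 0.35 among the next 400, 0.38 among the 1500 after those, and 0.42 among the 9717 dimmer ones above the signal limit. The brightest of these classes had a median log2 ratio of 0.02 and ratios of at most 1.31. A probe set that is bright on 1 array only cannot enter it. Such a case was a probe set of the immunoglobulin heavy chain gene Ighm, which had 9251.3 on the GPI array (rank 4) and 1943.5 on the control array, whereas another Ighm probe set had 8858.7 on the GPI array and 8711 on the control array. The deposited signals did not pile up at a single value, since the highest value occurred 1 time on each array, and 6 probe sets on the GPI array and 4 on the control array reached 9000. Whether the signals of S100a8 and S100a9 were limited by the scale was not tested.

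**Figure D2:**
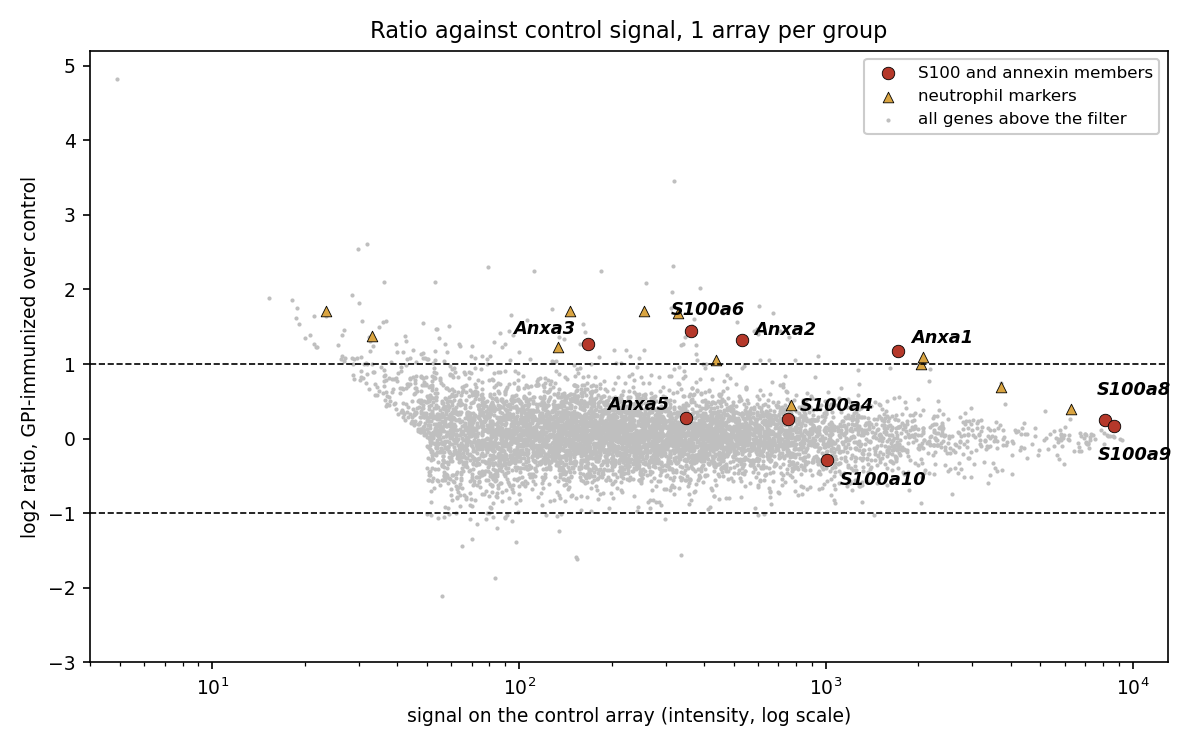
Log2 ratio, GPI over control (vertical axis), plotted by control signal (horizontal axis, log scale), 1 point per gene above the signal limit and 1 array per group and the 2-fold limits dashed. S100a6, Anxa1, Anxa2 and Anxa3 lie above the upper limit at control signals from 167.4 to 1722.2, whereas S100a8 and S100a9 lie at control signals of 8141.5 and 8697.7, below it.

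The promoter windows of the calprotectin genes are shown for comparison with those above, from the same table and with the same capitals, for S100a8 at chr3:90668821-90669070, plus strand, and for S100a9 at chr3:90695722-90695971, minus strand.
S100a8: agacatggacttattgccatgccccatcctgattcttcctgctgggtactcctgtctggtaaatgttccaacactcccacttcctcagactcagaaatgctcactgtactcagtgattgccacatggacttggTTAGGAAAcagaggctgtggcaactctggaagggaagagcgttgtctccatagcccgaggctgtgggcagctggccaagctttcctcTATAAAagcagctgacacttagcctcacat
S100a9: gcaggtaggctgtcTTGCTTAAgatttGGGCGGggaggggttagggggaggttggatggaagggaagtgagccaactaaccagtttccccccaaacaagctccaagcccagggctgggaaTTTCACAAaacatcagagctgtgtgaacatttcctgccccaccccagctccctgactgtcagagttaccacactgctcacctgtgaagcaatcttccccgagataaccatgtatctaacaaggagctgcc
Both windows held matches to the C/EBP consensus, 1 in S100a8 and 2 in S100a9, a motif that 36.8% of all windows hold. S100a8 also had a TATA box that began 30 bases before the start, in nearly the same place as in Anxa1, and S100a9 had a GC box.

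S100a4, S100a10 and Anxa5 passed the signal limit on both arrays and remained within the 2-fold limits. S100a4 and Anxa5 had a single probe set each. S100a4 encodes a regulator of cell motility that binds non-muscle myosin. It had a signal of 898.8 on the GPI array and 749.4 on the control array, with a ratio of 1.20. Anxa5, whose protein binds phosphatidylserine on dying cells, had 421.7 on the GPI array and 349.6 on the control array, with a ratio of 1.21. The log2 ratios of S100a4 and Anxa5 (0.26 and 0.27) were about as large as the SD of a single probe set.

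S100a10, the partner of annexin A2 and an S100 protein that has lost calcium binding, was the only gene of the 9 with a ratio below 1. Its brighter probe set had a signal of 823.0 on the GPI array and 1006.4 on the control array, with a ratio of 0.818. The other probe set, of the type that can also read related transcripts, had 659.0 on the GPI array and 1060.7 on the control array, with a ratio of 0.621. Both probe sets were thus lower on the GPI array, without reaching the 2-fold limit. Between the log2 ratios of Anxa2 and S100a10 the difference was 1.62, and between those of S100a6 and S100a4 it was 1.18, each more than 0.37, the SD of a difference between probe sets. Between S100a8 and S100a9 it was 0.08.

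Of the 10 genes, 6 are S100 genes, and these lie in a cluster on chromosome 3 in the RefSeq annotation. S100a4, S100a5 and S100a6 follow each other with no annotated gene between them, as do S100a8 and S100a9. In this order, S100a4 had a ratio of 1.20 and S100a6 one of 2.71. The gene between them, S100a5, had signals of 9.9 on the GPI array and 10.6 on the control array, within the range of the bacterial probe sets. S100a10 is separated from S100a9 by many other genes. The log2 ratios of the adjacent genes S100a8 and S100a9 thus lay closer together than those of S100a4 and S100a6, which S100a5 separates. S100a8 and S100a9 were, however, both near the top of the scale, where log2 ratios varied least. Among the 100 brightest probe sets the log2 ratios had an SD of 0.09 and a median of 0.02. S100a8 (0.24) and S100a9 (0.17) lay above that median. A probe set bright on 1 array only cannot be among those 100. A link between gene order and these ratios was not tested.

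**Figure D3:**
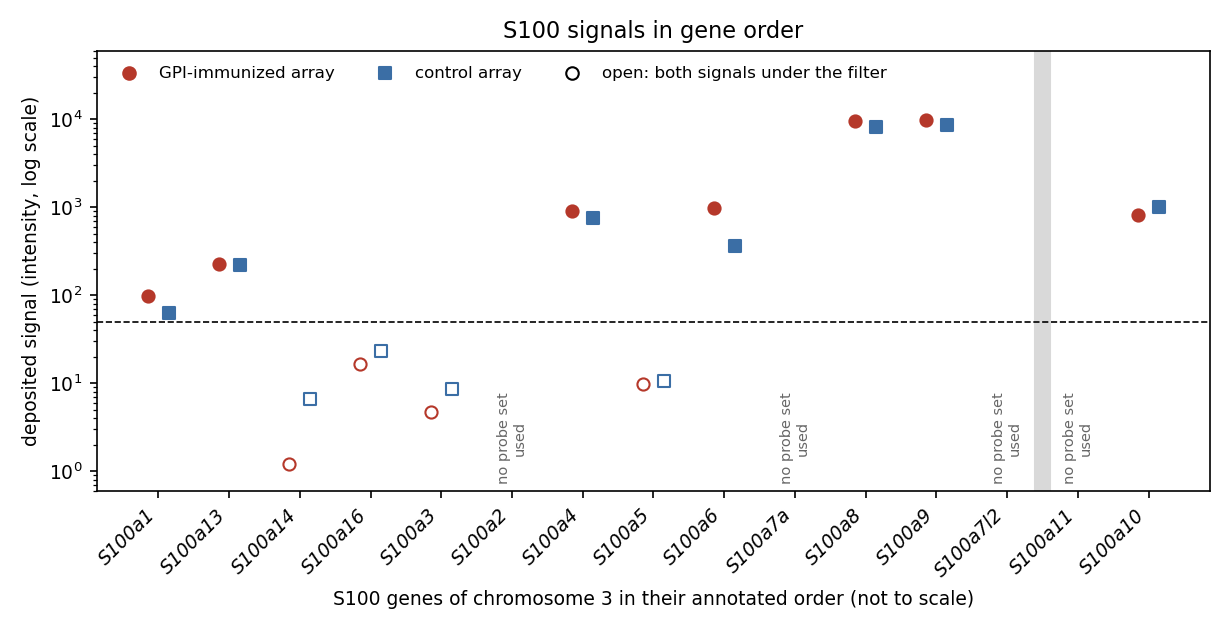
Deposited signals (vertical axis, log scale) of the S100 genes of chromosome 3 in their annotated order, on the GPI array (circles) and the control array (squares), 1 array per group, with the signal limit of 50.2 dashed and open symbols for genes under it on both arrays. The grey band stands for a stretch of other genes, and S100a5, at 9.9 and 10.6, lies between S100a4 and S100a6.

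The other genes of both families that passed the signal limit showed no 2-fold difference, and those under it could not be called. Of all 6961 genes above the limit, 2.23% were higher and 0.445% lower, so a count of 0 among so few genes says little. Of 9 measured further genes named for S100, 3 passed the signal limit and 0 were 2-fold higher or lower. S100a1, known from striated muscle, had signals of 97.5 on the GPI array and 63.3 on the control array, with a ratio of 1.54, and its dimmer probe set had a ratio of 1.51. S100a13 had 227.3 on the GPI array and 224.0 on the control array, with a ratio of 1.01. S100pbp, which encodes a binding protein of S100P and is not itself an S100 protein, had a ratio of 0.848. Both probe sets of S100b, a glial S100 protein, stayed within the range of the bacterial probe sets. Of 7 measured further annexins, 3 passed the limit, again with 0 higher and 0 lower. These were Anxa4 (ratio 1.20), Anxa7 (1.19) and Anxa6 (0.884), and the dimmer probe sets of each lay on the other side of 1 or, for Anxa6, on both sides. Anxa1, Anxa2 and Anxa3 were therefore the only annexins of the 7 above the limit that were called.

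Binding partners and receptors were counted as well, because S100 proteins and annexins act through them. Of 15 measured, 11 passed the signal limit, above which 2.23% of all genes were higher and 0.445% lower. Among the 11, 1 was at least 2-fold higher, 0 were lower and 10 were between, with a median log2 ratio of 0.26. The higher one was Fpr2, the formyl peptide receptor through which annexin A1 acts on neutrophils and monocytes. It had a signal of 1040.6 on the GPI array and 364.5 on the control array, with a ratio of 2.85. Fpr2 and its ligand gene Anxa1 were thus both called, with log2 ratios of 1.51 and 1.17.

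For the plasminogen system that annexin A2 and S100A10 serve, the urokinase receptor gene Plaur had a ratio of 1.65 from signals of 249.0 on the GPI array and 150.7 on the control array. Plasminogen (Plg) and tissue plasminogen activator (Plat) were within the range of the bacterial probe sets. Ahnak, a large scaffold that binds the annexin A2 and S100A10 complex, had a ratio of 1.13 at its only probe set above that range. Cacybp, which encodes the calcyclin-binding protein, had signals of 1172.3 on the GPI array and 726.6 on the control array, with a ratio of 1.61, below that of S100a6. Pla2g4a, the phospholipase whose activity annexins can restrain, had a ratio of 1.54.

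Among receptors of extracellular calprotectin, Tlr4 had signals of 77.2 on the GPI array and 60.6 on the control array, with a ratio of 1.27. Basigin (Bsg) had a ratio of 1.10, and Cd36, a fatty acid receptor, had the lowest ratio of the list among genes above the signal limit, at 0.770. Ager, the receptor for advanced glycation end products, had 18.4 on the GPI array and 23.9 on the control array, both under the signal limit. None of these receptor genes reached a 2-fold difference.

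**Figure D4:**
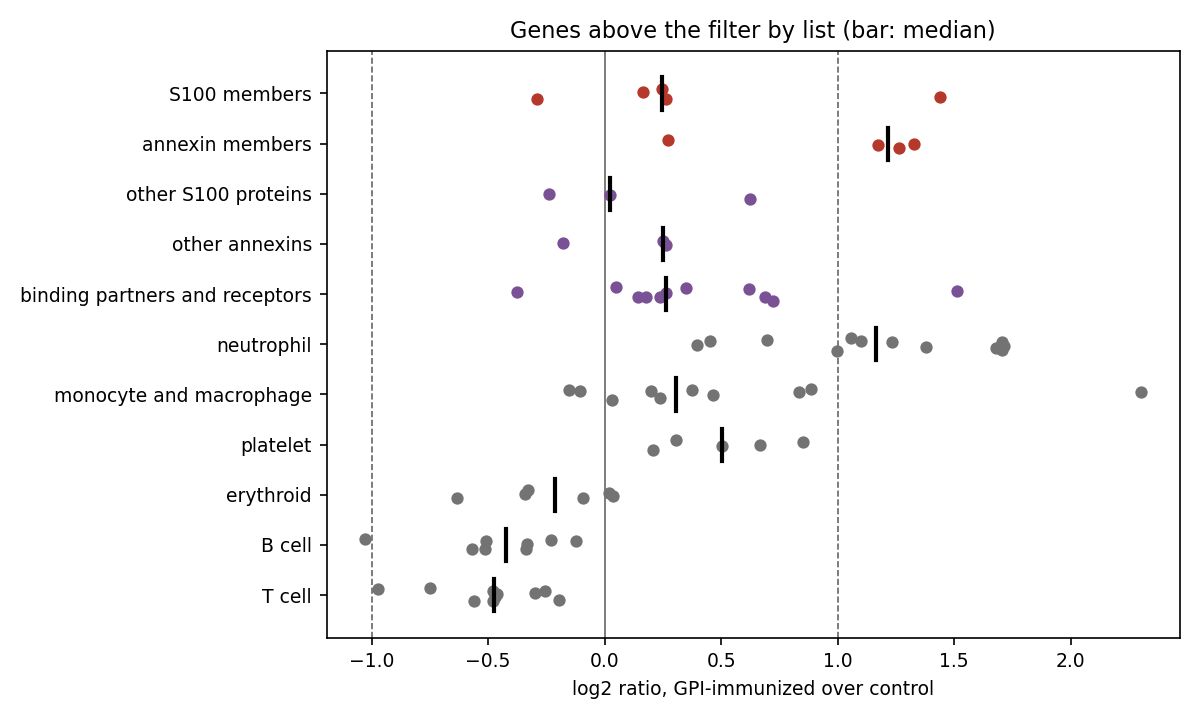
Log2 ratio, GPI over control (horizontal axis), for the genes above the signal limit in each list, 1 point per gene with the median as a bar and the 2-fold limits dashed, 1 array per group. The annexins Anxa1, Anxa2 and Anxa3 and S100a6 lie right of the upper limit. They lie in the range of the neutrophil markers (median 1.17) and in the wider one of the monocyte and macrophage markers (median 0.30). The latter range extends that far through Cd14 alone. The B and T cell markers lie left of 0.

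Markers of cell types moved in the same comparison, and their part in the ratios above was not tested. Of all 6961 genes above the signal limit, 2.23% were called higher and 4006 had a ratio above 1. Of 12 measured neutrophil markers, 8 were called higher (7 with median, quantile or lowess scaling). The 4 others also had ratios above 1, for a median log2 ratio of 1.17. Of the 8, Cxcr2 (76.6 on the GPI array, 23.5 on the control array) and Padi4 (85.9 on the GPI array, 33.0 on the control array) passed the signal limit through the GPI array alone, and with a floor at the 50th percentile 6 were higher. The summed signal of the 12 markers was 27634 on the GPI array and 16264 on the control array. The neutrophil ratios ran from 1.31 for the granule protein gene Ngp to 3.28 for the collagenase gene Mmp8. Ngp, with signals of 8282.0 on the GPI array and 6300.4 on the control array, was also near the top of the scale. Chil3, next lowest at 1.37, was not, with 1050.9 on the GPI array and 767.9 on the control array. The log2 ratios of S100a6, Anxa1, Anxa2 and Anxa3 lay within the neutrophil range, and those of S100a8 and S100a9 (0.24 and 0.17) below it. Of 10 monocyte and macrophage markers, all above the limit, 1 was higher (Cd14, 4.93) and 0 were lower, with a median of 0.30. The next furthest from a ratio of 1 were Fcgr1 (1.85), Ccr2 (1.78) and Lyz2 (1.38), and at a 1.5-fold limit 3 of the list were higher. Fcgr1 (74.6 on the GPI array, 40.4 on the control array) passed the signal limit through the GPI array alone. A dimmer Ccr2 probe set, above the limit on both arrays, had 154.0 on the GPI array and 69.9 on the control array, with a ratio of 2.20. The macrophage markers Csf1r, Cd68 and Adgre1 had ratios of 1.15, 1.18 and 0.901. The monocyte and macrophage ratios thus ran from 0.901 (Adgre1) to 4.93 (Cd14). This range held those of S100a6, Anxa1, Anxa2 and Anxa3 as well, and also those of S100a8 and S100a9. For S100a6, Anxa1, Anxa2 and Anxa3 this rested on Cd14 alone, as the next highest ratio of the list was that of Fcgr1 (1.85).

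All 10 T cell markers above the limit (median -0.47) and all 8 B cell markers above it (median -0.42) lay below a ratio of 1. The B cell marker Fcer2a (0.491) was the 1 gene of these lists that was called lower. The summed signals were 1863 on the GPI array and 2545 on the control array for the T cell list, and 12997 on the GPI array and 17203 on the control array for the B cell list. The B cell factor Pax5 and the T cell coreceptor gene Cd8b1 were under the limit on both arrays, while the other B and T cell genes measured, such as Cd79a and Cd3e, were above it. Platelet markers had a median log2 ratio of 0.50, plasma cell markers one of 0.08 and erythroid markers one of -0.21, with 0 genes called in these 3 lists. The platelet marker Gp5 (51.7 on the GPI array, 28.7 on the control array) passed the signal limit through the GPI array alone. With a floor at the 50th percentile the platelet median was 0.31.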

How the data were processed

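Total RNA of splenocytes was hybridized to 1 array per group. The authors deposited 1 intensity per probe set on a linear scale, from software named only as gene expression software. The sources used here do not give how probes were summarized, whether arrays were scaled or which probe sets counted as detected. The labels describe labelled cDNA and the paper biotinylated cRNA. Of 22626 probe sets other than control probe sets, 20380 had exactly 1 symbol in the platform annotation, 691 had several and 1555 none. The gene IDs of all 9 measured members matched the same symbol in RefSeq.

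Ratios were formed from the deposited intensities without further scaling, with signals of 0 set to 0.1. The members and gene lists were chosen with earlier results of these data known, so no list statistic is independent support. All members and, from the other lists, the genes called and up to 4 more that lay furthest from a ratio of 1 were to be named, and others named were chosen after their values were seen. Summed signals add the brightest probe set of each gene. With 1 array per group the number of arrays limits the precision, and no test was run. Alternatives were division by the array median, quantile normalization, lowess centring, floors, other filters and thresholds (1.5-fold and 3-fold), averaging of probe sets and omission of shared ones. The steps were tested on simulated data. Python 3.11.15, numpy 2.4.6, pandas 2.3.3, statsmodels 0.14.6 and matplotlib 3.10.9 were used.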

Additional observations from a re-analysis of the deposited data

How the results depend on the processing

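S100a6, Anxa1, Anxa2 and Anxa3 were the same 4 genes called higher, with 0 called lower, under each other scaling, floor, filter and choice of probe sets and at 1.5-fold. At a 3-fold limit the count of higher genes was 0 for all members, 0 for the S100 genes and 0 for the annexins. Over these alternatives the ratio stayed between 2.55 and 2.71 for S100a6, 2.27 and 2.51 for Anxa2, 2.25 and 2.40 for Anxa3, and 2.12 and 2.25 for Anxa1. The 2.27 for Anxa2 came from averaging its probe sets. That average includes the probe set with 3.1 on the GPI array and 0.8 on the control array, which leaves no usable ratio. The call of Anxa2 under averaging therefore adds nothing to that of its brightest probe set. S100a9 ranged from 1.05 to 1.12, S100a8 from 1.11 to 1.18 and S100a10 from 0.713 to 0.818. The median log2 ratio of the members moved to 0.72 without probe sets of the shared types, which left S100a8 out. Division by the median shifted all log2 ratios by -0.09, and the share of genes called higher or lower was then 1.6% and 0.675%. Of all genes, 155 were higher and 31 lower, against 1266 and 1105 when no signal limit was set, 70 and 5 at a limit of the 75th percentile, 35 and 3 at 3-fold and 491 and 225 at 1.5-fold. Of 309 values of the other lists under these alternatives, 285 stayed within 1 SD between probe sets (medians) or 1.5 times (counts) and 24 did not. Among them, the median of the further annexins moved to -0.16 when probe sets were averaged, and 1 T cell marker, Cd3e, was 2-fold lower under the 3 other scalings. The floor at the highest bacterial control signal, chosen after seeing the data, changed no call among the members. No paired analysis was possible because each group has 1 array. Signals near the bacterial range limit the dim probe sets.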
